A study of Mus musculus with 6 samples.

Results

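The genes described here make nicotinamide adenine dinucleotide (NAD) and its phosphate NADP, or draw nicotinamide away from that use. They are Nmrk1, Nmrk2, Nampt, Nmnat1, Nmnat3, Naprt, Nadsyn1, Nnmt and Nadk, 9 of the 24411 gene symbols in the count tables. The set was drawn up by pathway and chosen by the higher Nmrk2 level seen with Sardomozide in these same libraries. The differences, intervals and calls given for the 9 genes are therefore a description of these libraries, with no p-values, and nothing is supported with them. The libraries came from wild-type C2C12 cells, an immortalised mouse myoblast line whose myoblasts fuse into multinucleated myotubes when serum is lowered, here to horse serum. The labels give the cell type as myoblasts, and the treated cultures were myotubes. Fully differentiated myotubes were kept for 72 h with the solvent DMSO (3 libraries) or with 10 µM Sardomozide dihydrochloride (3 libraries), an inhibitor of the S-adenosylmethionine decarboxylase encoded by Amd1. The labels are silent on whether replicates were grown as separate cultures. Errors and p-values therefore cover library-to-library variation alone, and this may be technical.

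NAD carries electrons in energy metabolism and is used up by sirtuins and ADP-ribosyl transferases, so cells remake it from several precursors. Nicotinamide is recycled by Nampt, nicotinamide riboside is phosphorylated by the kinases Nmrk1 and Nmrk2, nicotinic acid enters through Naprt, and tryptophan enters through a longer route that ends at Qprt. The mononucleotides formed are joined to an adenylyl group by the Nmnat enzymes, Nadsyn1 amidates the product of the nicotinic acid route, and Nadk phosphorylates NAD to NADP. Nnmt methylates nicotinamide with S-adenosylmethionine as the methyl donor, which is also the substrate of the enzyme that Sardomozide inhibits. Nmrk2 is the riboside kinase characteristic of muscle, whereas Nmrk1 is found in many tissues.

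Library totals ran from 25496323 to 36709804 counts, and all 9 genes passed the filter on low counts among 13076 genes tested. Amd1 had 0 counts in 5 libraries and 3 in DMSO replicate 2, so its counts give no check of the treatment labels. How the counting treated reads with several matches is not given, so these counts do not show that Amd1 was not expressed. The reason for them was not tested. Myotube markers were present in all libraries, with a summed level of 18300 to 19700 CPM (counts per 1000000, with library sizes scaled by TMM) with DMSO and 18700 to 20100 with Sardomozide, and 0 of the 10 listed were at 0. Markers of cycling or undifferentiated myoblasts summed to 398 to 417 CPM with DMSO and 422 to 462 with Sardomozide. Fibroblast markers summed to 5820 to 6680 and 5150 to 6470 CPM, mostly from Col1a1, Col1a2 and Postn. Of these 8 markers 1, Tcf21, had no count, and Lum and Thy1 had 0 to 3 counts per library. Of 8 adipocyte markers 6 had no count in any library, among them Adipoq and Plin1. The list summed to 3.52 to 3.78 CPM with DMSO and 4.33 to 4.56 with Sardomozide, nearly all from Pparg. Of 8 macrophage markers 3 had none, Ptprc, Adgre1 and C1qa, and the sums were 2.36 to 2.72 and 3.01 to 4.28 CPM. Of 8 neuron and glia markers 2 had none. Their sums, mostly from Tubb3, were 25.1 to 31 CPM with DMSO and 17 to 17.3 with Sardomozide. Of 6 hepatocyte markers 5 had none (sums at most 0.0822 CPM). Single markers changed within these lists. Myog, a myogenic factor gene, rose from 1110 ± 10.3 to 1310 ± 45 CPM and Myh8, the perinatal myosin heavy chain gene, fell from 614 ± 14.2 to 397 ± 37.9 CPM (edgeR adjusted p = 0.000547 and 1.2e-06). Mki67, a proliferation marker, and Itgam, a myeloid integrin gene, also rose, to 118 ± 10.3 from 105 ± 2.75 CPM and to 1.12 ± 0.335 from 0.428 ± 0.177 CPM (edgeR adjusted p = 0.0443 and 0.0268). Mki67 was not called with DESeq2 or limma-voom (0.0588 and 0.0695) or without any single library other than Sardomozide replicate 1 (0.0793 to 0.231), nor Itgam without DMSO replicate 1, DMSO replicate 2 or Sardomozide replicate 1 (0.081, 0.135 and 0.132). Dcn, a matrix proteoglycan gene of fibroblasts, and Tubb3, a neuronal tubulin gene, fell to 11 ± 2.37 from 18.8 ± 2.15 CPM and to 15.7 ± 0.0889 from 26.6 ± 3.14 CPM (edgeR adjusted p = 0.00187 and 7.84e-06). C2C12 is a myoblast line, so counts of a listed marker do not show that cells of that type were present. The part of these marker differences in the differences below was not tested. In bulk libraries fewer myotubes or myoblasts and less RNA per cell cannot be told apart.

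Nmrk2 and Nmnat1 stood higher with Sardomozide, and the other 7 genes were not called. With edgeR's quasi-likelihood F test and p-values adjusted over all genes by Benjamini-Hochberg (threshold 0.05), 16.3% of all genes tested were called, 7.88% higher and 8.45% lower. Of the 9 genes 2 were called, both higher, and since Nmrk2 was one of them by choice, nothing is read from this count against those shares. The groups did not overlap for 3 of the 9 genes, Nmrk2, Nmnat1 and Nadsyn1, and for 33.5% of all genes tested. The median log2 fold change of the 9 genes was 0.1, beside -0.001 for all genes tested.

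**Figure D1:**
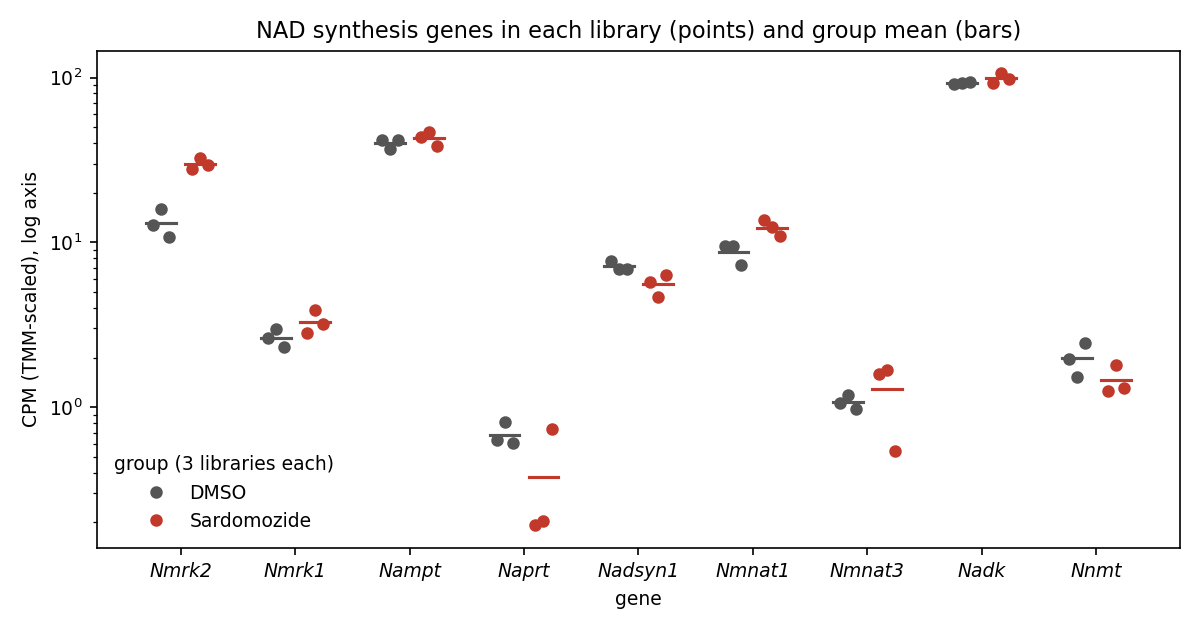
Level of the 9 genes in each of the 6 libraries, in CPM on a log axis. Points are libraries and bars are group means (n = 3 each). Nmrk2 lies between 27.9 and 32.6 CPM with Sardomozide and between 10.8 and 15.9 with DMSO, and Naprt and Nmnat3 each have 1 Sardomozide library away from the other two.

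The promoters of the 2 called genes are shown because these are the members that stood higher together. The sequences are the 250 bases before a RefSeq start site (GRCm38.p6), 5′ to 3′ on the strand of the gene, at chr10:81202038-81202287 (minus strand) for Nmrk2 and chr4:149485211-149485460 (minus strand, the first of 2 annotated starts) for Nmnat1. Capitals mark matches to any of 5 motifs searched on both strands. These were the TATA box TATAAA, the CCAAT box, the E-box CACGTG bound by the clock factors CLOCK and BMAL1, and a pair of E-boxes bound by myogenic factors such as MyoD, of which one reads CAGCTG while the other reads CAGGTG.
Nmrk2: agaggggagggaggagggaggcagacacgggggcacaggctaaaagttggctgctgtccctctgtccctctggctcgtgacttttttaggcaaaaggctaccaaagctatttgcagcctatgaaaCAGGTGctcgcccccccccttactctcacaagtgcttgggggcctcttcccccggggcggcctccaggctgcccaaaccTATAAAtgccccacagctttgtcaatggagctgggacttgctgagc
Nmnat1: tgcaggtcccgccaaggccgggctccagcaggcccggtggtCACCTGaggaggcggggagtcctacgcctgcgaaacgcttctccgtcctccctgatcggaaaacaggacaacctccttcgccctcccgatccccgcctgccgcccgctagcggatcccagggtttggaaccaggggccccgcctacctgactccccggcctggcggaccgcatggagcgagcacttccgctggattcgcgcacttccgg
The Nmrk2 window holds TATAAA with its first base 46 bases before the start and CAGGTG 125 bases before it. TATAAA occurs on either strand in 12.4% of 32851 promoter windows of this length, and CAGGTG in 17.2%. The Nmnat1 window holds CAGGTG on the opposite strand (read here as CACCTG), 209 bases before the start, and no TATAAA. The window of the second Nmnat1 start also holds CCAAT (33.8% of windows). Among members that were not called, the Nampt window holds the E-box CAGCTG (13% of windows), 105 bases before the start. CCAAT also occurs in windows of Nadk and Nmrk1, likewise not called. RefSeq promoters were matched for 7 of the 9 genes, and CACGTG (6.02% of windows) was found in 1 of them, Nadk, 40 bases before its second start. These matches describe letters and are not evidence of binding.

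Nmrk2 (chromosome 10, 81198170 to 81202051, minus strand, GRCm38 with GENCODE M21) had the largest difference of the 9 genes. Its counts in replicates 1, 2 and 3 were 322, 511 and 322 with DMSO, and 1017, 1117 and 922 with the inhibitor. In CPM these were 12.7, 15.9 and 10.8 with DMSO and 27.9, 32.6 and 29.5 with Sardomozide. Every Sardomozide library lay above every DMSO library, and the spread was wider with DMSO, where the coefficient of variation was 19.7% against 8.02% with Sardomozide. The means were 13.1 ± 2.58 and 30 ± 2.41 CPM (SD, n = 3), a 2.28-fold difference with a log2 fold change of 1.19 ± 0.12 (SE) and a 95% interval of 0.94 to 1.44. Among the 1030 genes called higher, Nmrk2 ranked 34 by fold change. Leaving out each library in turn gave log2 fold changes from 1.06 to 1.36. The antisense gene Atcayos covers 270 bases (14.6%) of the exons of Nmrk2, and whether the counting used strand is not given in the sources used here. Atcayos had 37 to 103 counts per library and a log2 fold change of 0.07 (edgeR adjusted p = 0.892).

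The sister kinase Nmrk1 (chromosome 19, 18631950 to 18652428) had far fewer counts, which were 67, 95 and 69 in DMSO against 102, 133 and 100 in Sardomozide. Its levels were 2.64, 2.96 and 2.31 CPM and 2.8, 3.88 and 3.2 CPM, and the groups overlapped. Nmrk1 was not called, and the interval of its log2 fold change ran from -0.1 to 0.74, around 0.32 ± 0.2. For both kinases replicate 2 was the highest library within each group. Per kilobase of exon, Nmrk2 made up 90.5, 91.5 and 90.3% of the summed level of the 2 kinases with DMSO and 95.2, 94.4 and 94.8% with Sardomozide. The Nmrk2 level per kilobase was 9.85 ± 0.751 times that of Nmrk1 with DMSO and 18.3 ± 1.56 times with Sardomozide (SD, n = 3). The share depends on the length taken for Nmrk1, whose merged exons span 3689 bases and whose longest transcript has 1940. With the longest transcripts it was 83.8 ± 1.01% with DMSO and 90.5 ± 0.737% with Sardomozide.

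Nampt (chromosome 12, 32819545 to 32853349), whose enzyme is the rate-limiting step of nicotinamide recycling, was the most counted of the entry enzymes in both groups. Its levels were 41.7, 36.8 and 41.7 CPM with DMSO and 43.6, 46.5 and 38.5 CPM with Sardomozide. The groups overlapped and Nampt was not called, with a log2 fold change of 0.1 ± 0.072 and an interval of -0.05 to 0.25. Per kilobase, the ratio of Nmrk2 to Nampt was 0.828, 1.18 and 0.705 with DMSO and 1.74, 1.91 and 2.09 with Sardomozide. On this per-kilobase scale Nmrk2 was thus below Nampt in 2 of 3 DMSO libraries and above it in 3 of 3 Sardomozide libraries. In counts not divided by length, Nampt was above Nmrk2 in every library.

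The first step of the nicotinic acid route was represented by few counts. Naprt (chromosome 15, 75890956 to 75894481), which starts this route, had 16, 26 and 18 counts in DMSO, against 7, 7 and 23 in Sardomozide. Sardomozide replicate 3, at 0.736 CPM, lay within the DMSO range of 0.604 to 0.809 CPM, and the other 2 Sardomozide libraries, at 0.192 and 0.204 CPM, lay below it. Naprt was not called, and its log2 fold change was -0.88 ± 0.51 with an interval of -1.95 to 0.18. Without Sardomozide replicate 3 it was -1.77 ± 0.58, still not called. Naprt shares 277 exon bases (11.8%) on the same strand with Eef1d, a translation elongation factor gene with 3853 to 5830 counts, so its few counts are uncertain. Nadsyn1 (chromosome 7, 143795584 to 143822849), the NAD synthetase of this route, had 7.67, 6.88 and 6.91 CPM with DMSO and 5.78, 4.67 and 6.31 CPM with Sardomozide. Its groups did not overlap, yet it was not called (log2 fold change -0.36 ± 0.14, interval -0.65 to -0.06).

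Among the adenylyl transferases, which act in every route, the nuclear enzyme gene Nmnat1 was called higher. Nmnat1 (chromosome 4, 149467572 to 149485202) had 9.48, 9.55 and 7.31 CPM with DMSO and 13.7, 12.4 and 10.9 CPM with Sardomozide. All Sardomozide libraries lay above all DMSO libraries, the closest being DMSO replicate 2 and Sardomozide replicate 3. The means were 8.78 ± 1.27 and 12.3 ± 1.35 CPM, a 1.41-fold difference (log2 fold change 0.49 ± 0.12, interval 0.23 to 0.75). Without DMSO replicate 3, the lowest library, the log2 fold change was 0.38 and the gene was no longer called. Nmnat3 (chromosome 9, 98287435 to 98420438), often described as the mitochondrial enzyme, had 27, 38 and 29 counts in DMSO, against 58, 58 and 17 in Sardomozide. Sardomozide replicate 3 was the lowest of the 6 libraries and the other 2 the highest, and Nmnat3 was not called (log2 fold change 0.26 ± 0.37, interval -0.51 to 1.03). Without Sardomozide replicate 3 its log2 fold change was 0.61, also not called. The third enzyme gene, Nmnat2, known mainly from neurons and listed outside the 9 genes, had 11 ± 1.32 CPM with DMSO and 10.9 ± 0.748 with Sardomozide. Per kilobase, Nmnat1 took 57.5 ± 6.13% of the summed level of the 3 transferase genes with DMSO and 65.5 ± 0.968% with Sardomozide.

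Nadk (chromosome 4, 155562378 to 155591001), the cytosolic NAD kinase, was the most abundant of the 9 genes. It had 91.1, 92.2 and 93.7 CPM with DMSO and 93.2, 106 and 98.2 CPM with Sardomozide. The lowest Sardomozide library lay inside the DMSO range, and Nadk was not called (log2 fold change 0.1 ± 0.051, interval 0 to 0.21). Nadk2, the mitochondrial kinase gene, had 27.5 ± 1.29 and 27.7 ± 1.71 CPM. Nnmt (chromosome 9, 48591877 to 48605153), abundant in liver and fat tissue, had only 50, 49 and 73 counts in DMSO, against 46, 62 and 41 in Sardomozide. Its levels of 1.97, 1.52 and 2.45 CPM and 1.26, 1.81 and 1.31 CPM overlapped, and it was not called (log2 fold change -0.43 ± 0.28, interval -1.02 to 0.15). The half-widths of the intervals of Nnmt, Naprt and Nmnat3 exceed the difference seen for Nmnat1, so their counts could not resolve one of that size. A call asks for more than an interval clear of 0, as Nadsyn1 shows. Other uncalled members may therefore also have missed such a difference.

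**Figure D2:**
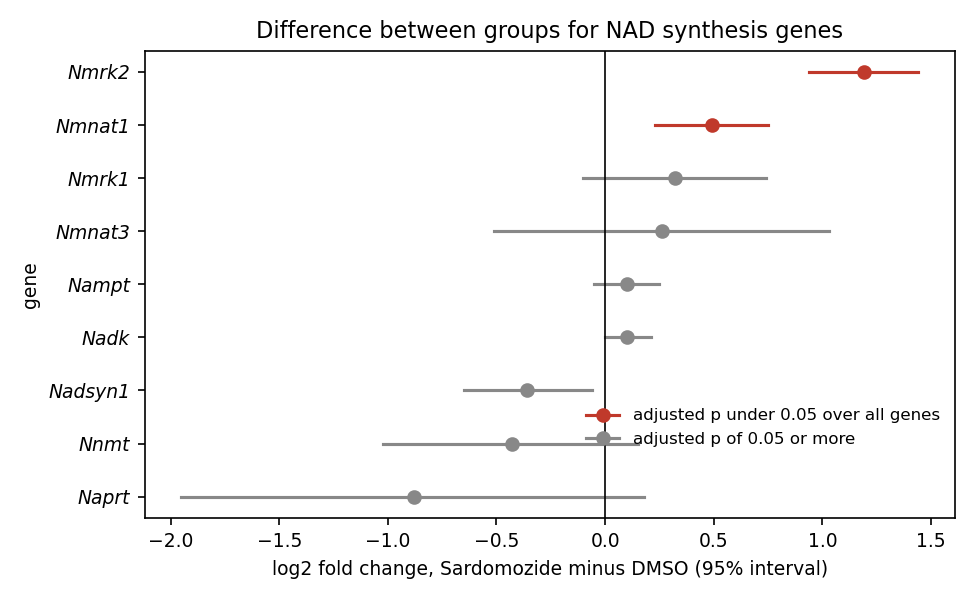
Log2 fold change of each of the 9 genes, Sardomozide minus DMSO, with its 95% interval (lines) from 3 libraries a group. The intervals of Nmrk2 (0.94 to 1.44) and Nmnat1 (0.23 to 0.75) lie above 0, and those of Naprt and Nmnat3, the genes with the fewest counts, are the widest.

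Ranked by level per kilobase of merged exons per 1000000 counts, the DMSO libraries gave Nadk first at 24.6 ± 0.346, then Nampt at 7.93 ± 0.564 and Nmrk2 at 7.08 ± 1.39. Below these came Nmnat1 at 2.89 ± 0.42, Nadsyn1 at 2.16 ± 0.136, Nnmt at 1.26 ± 0.293, Nmrk1 at 0.714 ± 0.0871, Naprt at 0.29 ± 0.0478 and Nmnat3 at 0.214 ± 0.0211. Nampt and Nmrk2 overlapped, Nampt being higher in 2 of 3 libraries, and the other neighbours in this order did not overlap. With Sardomozide, Nmrk2 came second at 16.2 ± 1.3, after Nadk at 26.5 ± 1.78 and before Nampt at 8.48 ± 0.799, with no overlap between these 3 genes. Further down that order, Nnmt and Nmrk1 overlapped, as did Nmnat3 and Naprt. With the longest transcript as the length, 7 of 9 genes held the same rank in each group, the exchanges being Naprt with Nmnat3 in DMSO and Nnmt with Nmrk1 in Sardomozide. On that length Nmnat1 and Nadsyn1, Nnmt and Nmrk1, and Naprt and Nmnat3 also overlapped in DMSO, so their separation depends on the length taken.

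The entry enzymes of the 4 routes can be set side by side on this per-kilobase scale. The riboside kinases together made up 47, 55 and 43% of the summed level with DMSO and 64.5, 66.7 and 67.9% with Sardomozide. Nampt made up 51.4, 42.7 and 55.1% and then 35.2, 32.9 and 30.8%. The sum contains the Nmrk2 level that chose the genes, so differences between the groups in any of the 4 shares are no separate result. Naprt held 1.8 ± 0.192% with DMSO and 0.639 ± 0.547% with Sardomozide, and its highest Sardomozide share was 1.27% in replicate 3. Qprt had 0, 4 and 2 counts in DMSO, against 0, 1 and 0 in Sardomozide, at most 0.276% of the sum. These are shares of transcripts, and the files hold no measure of the enzymes or of NAD.

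**Figure D3:**
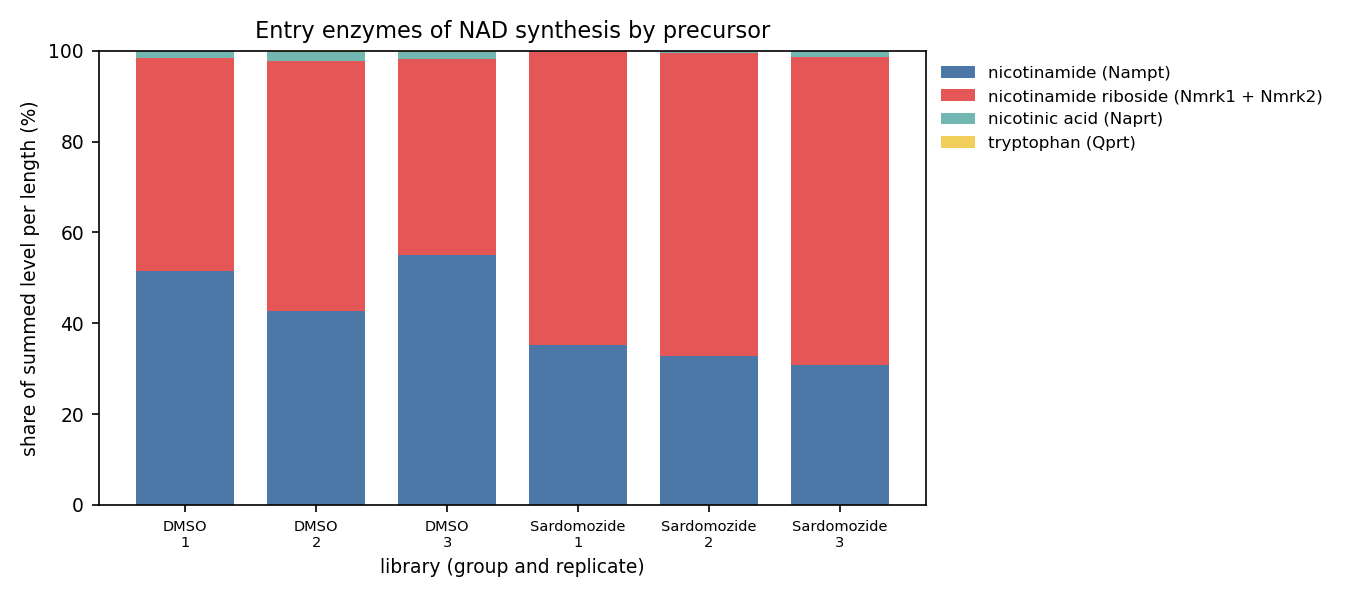
Share of the summed level per kilobase of exon that each entry enzyme of NAD synthesis takes in each library, in percent. The riboside kinases take 43 to 55% with DMSO and 64.5 to 67.9% with Sardomozide, and Qprt is too low to see.

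The rest of the tryptophan route was hardly expressed. Of its 9 genes only Afmid, a formamidase gene, was tested, at 7.12 ± 0.0319 and 7.78 ± 0.556 CPM, and it did not pass (edgeR adjusted p = 0.527). Tdo2, Kynu and Haao had 0 counts in every library, and a zero count leaves room for 3 counts (0.0822 to 0.118 CPM by library, counting error only). The NAD glycohydrolase genes Cd38 and Bst1 each had 2 counts in 1 Sardomozide library and 0 in the other 5 libraries. Sarm1, the third such gene, had 17 to 43 counts and did not pass (edgeR adjusted p = 0.781).

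Other genes that make, interconvert, repair or break down NAD and NADP were called in both directions. Of 9 tested, 1 rose, 2 fell and 6 did not pass, so that 33.3% were called, beside 16.3% of all genes tested. The median log2 fold change was -0.02, beside -0.001 for all genes. This list and the others were chosen with earlier results of these data known, so the shares called in them are a description. Nnt, the mitochondrial transhydrogenase that makes NADPH from NADH, had 75.4, 75.7 and 78.2 CPM with DMSO and 55.2, 59.8 and 63.4 CPM with Sardomozide. It fell without overlap between the groups (log2 fold change -0.36 ± 0.055, edgeR adjusted p = 0.00012). Ccrn4l, which encodes nocturnin, a phosphatase that turns NADP back into NAD, rose from 16.3 ± 1.91 to 21.4 ± 0.886 CPM, a log2 fold change of 0.39 ± 0.091 (edgeR adjusted p = 0.00587). Apoa1bp, the gene of an epimerase that repairs damaged NADH and NADPH, fell from 42.4 ± 1.07 to 37.2 ± 0.967 CPM (edgeR adjusted p = 0.0318). Its call was lost without any single library other than Sardomozide replicate 2 (adjusted p = 0.0514 to 0.123) and with the replicate number as a block (0.0569).

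Genes that carry or trim NAD precursors were called in both directions. Of 11 tested, 1 rose, 4 fell and 6 did not pass, so that 45.5% were called, beside 16.3% of all genes tested. The median log2 fold change was -0.1, beside -0.001 for all genes. Nt5e, an ecto-nucleotidase gene whose enzyme removes phosphate from extracellular mononucleotides, fell from 11.8 ± 0.694 to 8.42 ± 0.671 CPM, a log2 fold change of -0.48 ± 0.11 (edgeR adjusted p = 0.00525). Aox1, whose oxidase breaks down the methylated nicotinamide that Nnmt makes, fell from 14.4 ± 0.72 to 10.6 ± 1.55 CPM, a log2 fold change of -0.45 ± 0.11 (edgeR adjusted p = 0.00852). Slc29a1, an equilibrative nucleoside transporter gene, fell from 534 ± 10.2 to 472 ± 23.8 CPM, and Enpp1, an ecto-pyrophosphatase gene, from 188 ± 11.9 to 166 ± 3.43 CPM (edgeR adjusted p = 0.00911 and 0.013). Without DMSO replicate 1 Enpp1 was not called (log2 fold change -0.12, adjusted p = 0.113). Slc25a51, the carrier that brings NAD into mitochondria, rose from 77.3 ± 3.12 to 86.8 ± 3.91 CPM (edgeR adjusted p = 0.0292). It is named although it falls outside the naming rule, after its values were seen, and leaving out DMSO replicate 1 or 3, or else Sardomozide replicate 2 or 3, ended its call (adjusted p = 0.1, 0.132, 0.114 and 0.0633).

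Among enzymes that consume NAD, 2 large families were read. Of 17 tested ADP-ribosyl transferase genes, 0 were called higher, 4 fell and 13 did not pass, with a median log2 fold change of -0.22 beside -0.001 for all genes. Lower calls made up 23.5% of the list and 8.45% of all genes tested. For the higher direction the count was also 0 by DESeq2 and limma-voom, and 1 gene, Tnks, had an unadjusted p under 0.05 in edgeR. Art1, a membrane-anchored transferase gene of skeletal muscle, had 37.8, 42 and 39.7 CPM with DMSO and 30.5, 25.3 and 27.8 CPM with Sardomozide, with no overlap (log2 fold change -0.51 ± 0.073, edgeR adjusted p = 6.47e-05). Parp3, a DNA break response gene, fell from 140 ± 6.21 to 109 ± 7.13 CPM, a log2 fold change of -0.36 ± 0.051 (edgeR adjusted p = 6.96e-05). Art5 and Art3, relatives of Art1, also fell, by 0.58 ± 0.15 and 0.83 ± 0.26 on the log2 scale (edgeR adjusted p = 0.00876 and 0.0307). Without DMSO replicate 2, Art5 and Art3 were not called (adjusted p = 0.0602 and 0.112) and 2 genes of the list fell, and Art3 was also lost without DMSO replicate 3 or Sardomozide replicate 1 or 2 (0.106, 0.0651 and 0.0782). Without Sardomozide replicate 1, Tnks was called higher (log2 fold change 0.14). Parp1, the main DNA damage polymerase gene, had 96.4 ± 2.35 and 93.1 ± 2.72 CPM (interval of the log2 fold change -0.15 to 0.04).

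None of the 7 sirtuin genes passed (0 in edgeR, DESeq2 and limma-voom, and 0 with an unadjusted p under 0.05). Sirt1 had 23.3 ± 1.01 and 24 ± 1.13 CPM, with a log2 fold change interval of -0.11 to 0.21. Sirt4 and Sirt3, mitochondrial members, had the smallest p-values of the family, the log2 fold changes being -0.15 ± 0.12 and 0.13 ± 0.13 (edgeR adjusted p = 0.438 and 0.571). Without Sardomozide replicate 3 the value of Sirt3 was -0.02. Whether sirtuins and transferases differed from each other was not tested.

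**Figure D4:**
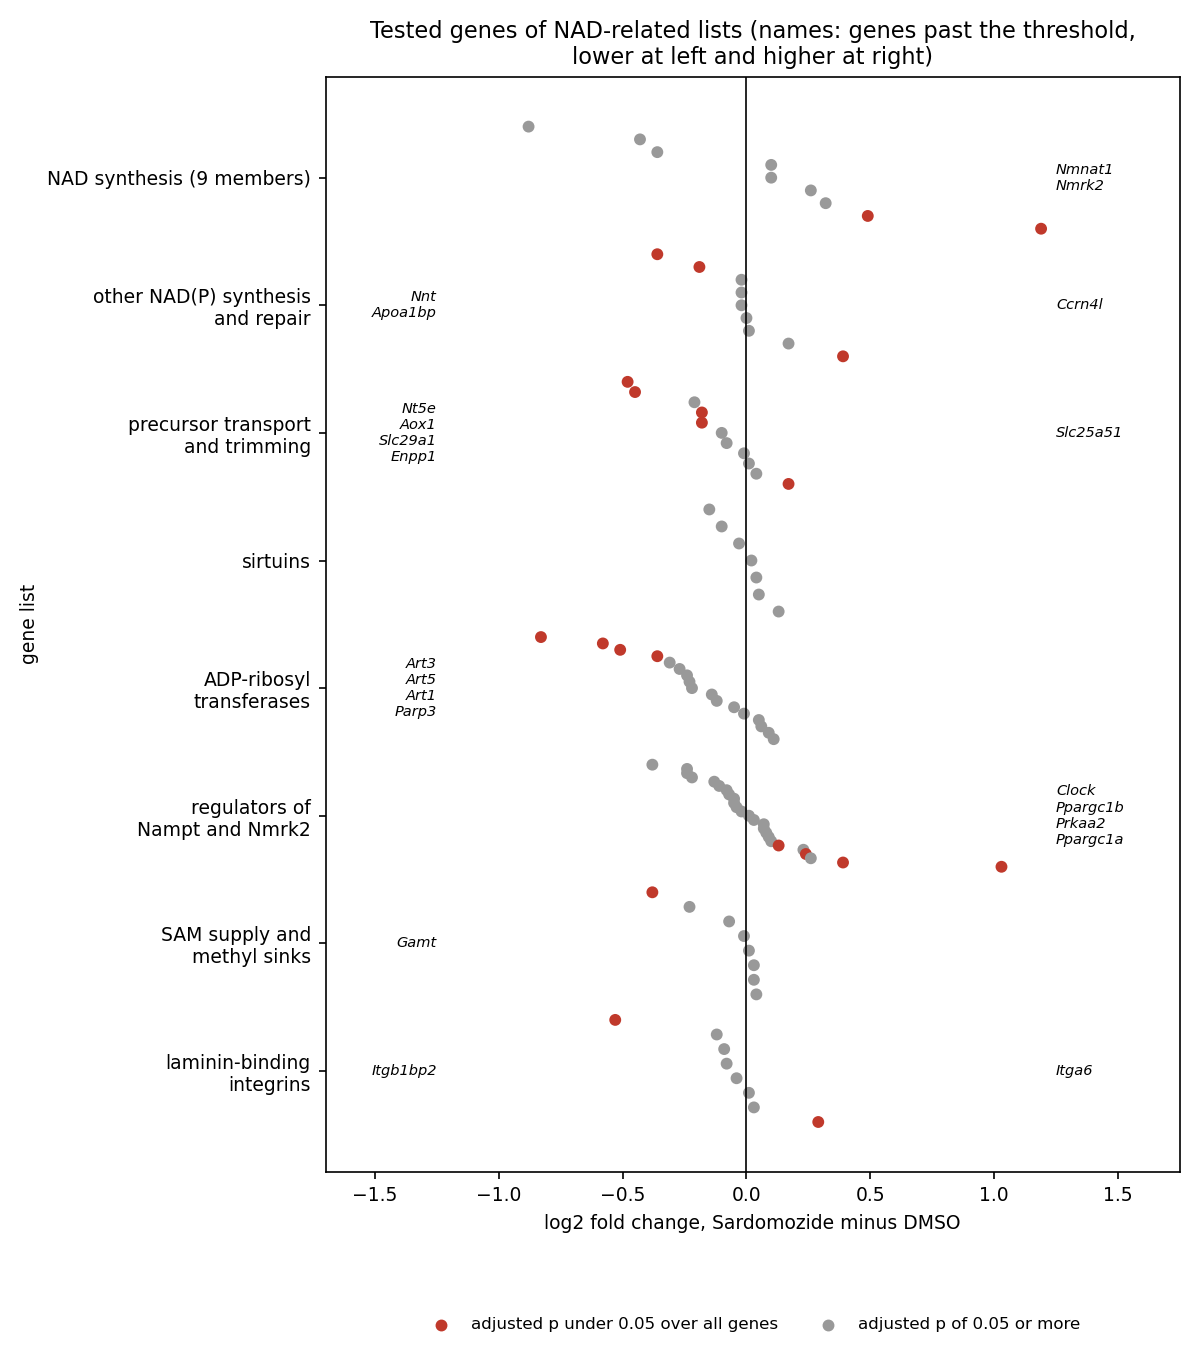
Log2 fold change, Sardomozide minus DMSO, of every tested gene in 8 lists related to NAD. Red points passed edgeR's test and are named at the left (lower) or right (higher). Nmrk2 at 1.19 and Ppargc1a at 1.03 lie farthest to the right, and the ADP-ribosyl transferases have a median of -0.22.

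A list of 25 genes, drawn up as background around reported regulators of Nampt and Nmrk2, was read from the same fit. Whether each of them acts on either gene was not tested. Of 25 tested, 4 rose, 0 were called lower and 21 did not pass. The 16% called was close to the 16.3% of all genes tested, and the median log2 fold change was 0.01, beside -0.001 for all genes. The count of 0 lower genes was the same by DESeq2 and limma-voom, while 4 lower genes (Dbp, Per2, Per3 and Srf) had an unadjusted p under 0.05 in edgeR. Ppargc1a, the coactivator gene of mitochondrial biogenesis, had 2.4, 2.74 and 3.02 CPM with DMSO and 5.29, 5.87 and 5.51 CPM with Sardomozide. It rose with no overlap (log2 fold change 1.03 ± 0.17, edgeR adjusted p = 0.000227). Prkaa2, the AMPK catalytic subunit gene prominent in muscle, had 33.2, 35.3 and 35.2 CPM and then 47.7, 45.2 and 43.1 CPM, also with no overlap (log2 fold change 0.39 ± 0.062, edgeR adjusted p = 0.000165). Its sister Prkaa1 did not pass (log2 fold change -0.08 ± 0.047, edgeR adjusted p = 0.272). Ppargc1b and Clock were close to the threshold, at log2 fold changes of 0.24 ± 0.081 and of 0.13 ± 0.043 (edgeR adjusted p = 0.0455 and 0.045), and with DESeq2 they were not called (0.0554 and 0.0612). Clock was also lost whichever library was left out (0.0507 to 0.159), and Ppargc1b when DMSO replicate 1 or 2, or else Sardomozide replicate 2 or 3, was left out (0.177, 0.159, 0.188 and 0.0886). The list then held 2 rises when DMSO replicate 1, DMSO replicate 2 or Sardomozide replicate 3 was left out. Srf without Sardomozide replicate 1 and Per2 without Sardomozide replicate 3 were called lower (adjusted p = 0.0403 and 0.0419). Arntl, the partner of Clock, had a log2 fold change of -0.02 (edgeR adjusted p = 0.889), and Ppara, a lipid-sensing receptor gene, one of 0.23 (0.672).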

How the data were processed

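The authors deposited raw read counts by gene symbol, 1 file for each of 6 libraries. Per the submitters' processing notes, the tools included STAR, StringTie and DESeq2, and GRCm38 and mm10 were the genome builds. What each tool did, the annotation, the use of strand and the handling of reads with several matches were not given in the sources used here. Per the labels' protocols, total RNA was sequenced as paired reads on an Illumina NovaSeq. Totals of 25496323 to 36709804 counts set the precision, and all intervals cover the spread between 3 libraries.

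Genes were filtered with filterByExpr (minimum count 10, total 15), leaving 13076 of 24411 symbols. Counts were scaled by TMM and tested two-sided in edgeR 4.0.16 (R 4.3.3) by quasi-likelihood (robust, treatment as the only term), with Benjamini-Hochberg adjustment over all genes tested. Standard errors are the log2 fold change over the root of F. CPM values are counts per 1000000 TMM-scaled counts, and levels per kilobase divide them by merged exons of GENCODE M21 (GRCm38). Promoters were read from RefSeq on GRCm38.p6. The steps were tested on simulated counts.

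The members and lists were chosen with earlier results of these data known. The text names the 9 members, up to 4 called genes of each other list with the smallest adjusted p (the 2 smallest where none was called), and the 5 genes whose log2 CPM (prior count 2) correlated best with Nmrk2 and with Nnmt. Genes given as context outside this rule (Nmnat2, Nadk2, Sirt1, Parp1, Prkaa1, Tnks, Arntl, Ppara, Prkag3, Itga7, Itgb1, marker genes and genes at or near 0 counts) were chosen after their values were seen. Alternatives were RLE and no scaling factors, no filter and a filter of 1 CPM in 3 libraries, DESeq2 1.42.0, limma-voom (limma 3.58.1), a replicate block, estimation without robustness, a 0.01 threshold and each library left out. Replicate pairs of a group gave a chi-square per degree of freedom of 5.45 to 16.1, so no pair agreed within sampling noise.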

Additional observations from a re-analysis of the deposited data

How the results depend on the processing

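The log2 fold change of Nmrk2, whose level chose the genes, ran from 1.06 to 1.36 over the alternatives, which refit the same libraries. Without DMSO replicate 3 Nmnat1 was not called (log2 fold change 0.38), so that the members called higher numbered 1 to 2 over the libraries left out. None of the 7 uncalled members was called or changed sign under any alternative. Naprt could not be tested with the filter of 1 CPM in 3 libraries. Over all genes, 1079 were called at a threshold of 0.01 (501 higher, 578 lower) instead of 2135, and 1326 to 1952 over the libraries left out (620 to 927 higher, 706 to 1025 lower, each lowest without DMSO replicate 1). Without DMSO replicate 3, 672 were higher. Such fits have fewer libraries; why the count was lowest without DMSO replicate 1 was not tested. In the other NAD lists, genes called higher numbered 1 at a threshold of 0.01 and 1 to 3 over the libraries left out, instead of 2. The sign of Sarm1 was reversed without DMSO replicate 3 (-0.06) or Sardomozide replicate 3 (-0.03), and that of Sirt3 without Sardomozide replicate 3 (-0.02), and leaving out other libraries gave at most 0.46 and 0.23. The Nmrk2 share of kinase transcripts was 83.2% with DMSO and 90.2% with Sardomozide in counts without length scaling, and 83.8% and 90.5% with the longest transcripts, instead of 90.8% and 94.8%.

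Samples with the same replicate number did not deviate together (correlations of -0.02 to 0.02 over 13076 genes), and not every sample correlated best with its own number, so the numbers were not taken as pairs. With the replicate number as a block, 1820 genes were called, Nmrk2 had a log2 fold change of 1.2 and both called members stayed called, while Apoa1bp and Clock were lost. Other scaling factors moved the median of all genes by at most 0.001. Prkag3, an AMPK subunit gene, was not called in the reported fit and was called higher with DESeq2, limma-voom, the block, estimation without robustness and without Sardomozide replicate 2 (adjusted p = 0.00671, 0.026, 0.0225, 0.0199 and 0.00133). Near 0, the signs of Nmnat2 (0.09 and 0.03 without replicate 3 of either group), Nadk2 (-0.02 without DMSO replicate 2, -0.04 without Sardomozide replicate 1) and Arntl (0.04 without DMSO replicate 1, 0.02 without Sardomozide replicate 2) were reversed. Depth limits Naprt, Nmnat3 and Nnmt, which had 7 to 73 counts per library.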

Other observations

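Nmrk2 was first described as a protein that binds the integrin beta1 chain, and genes of laminin-binding integrins were read from the same fit. Of 8 tested, 1 rose and 1 fell, 25% of the list beside 16.3% of all genes tested, and the median log2 fold change was -0.06, beside -0.001 for all genes. Itga6, an integrin alpha chain gene, rose from 61.6 ± 4.9 to 75.4 ± 5.79 CPM, a log2 fold change of 0.29 ± 0.064 (edgeR adjusted p = 0.0039). Itgb1bp2, which encodes melusin, a muscle protein that also binds the integrin beta1 chain, fell from 148 ± 4.31 to 102 ± 3.67 CPM, a log2 fold change of -0.53 ± 0.045 (edgeR adjusted p = 9.62e-08). Nmrk2 and Itgb1bp2, both named for this binding, thus stood on opposite sides. The integrin chain genes of muscle, Itga7 and Itgb1, did not pass (log2 fold changes -0.09 ± 0.044 and 0.03 ± 0.043, edgeR adjusted p = 0.163 and 0.654). Both called genes kept their call and direction under all 15 alternatives.

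Of 8 tested genes around S-adenosylmethionine, the methyl donor of Nnmt, 0 rose and 1 fell in edgeR (12.5% called, beside 16.3% of all genes), and DESeq2 and limma-voom gave the same counts, with 0 higher genes at an unadjusted p under 0.05. The gene that fell was Gamt, which uses that donor to make creatine, from 73.1 ± 0.622 to 56.1 ± 1.48 CPM (edgeR adjusted p = 2.64e-05).

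The 5 genes whose log2 CPM followed that of Nmrk2 most closely over the 6 libraries were Tmem109, Tspan3, Gars, Eda2r and Taf2, with Pearson's r from 0.993 to 0.996. The libraries fall into 2 treatment groups and 239 tested genes had r above 0.95, so the likeness is a description. Of these 5, all but Taf2 were called higher (edgeR adjusted p = 0.188 for Taf2), with log2 fold changes from 0.18 to 0.39, against 1.19 for Nmrk2. Their direction was fixed by picking genes that follow Nmrk2, so it is no separate result. For Nnmt the closest were Irs2, Atp10a, Ajuba, Gmds and Syt6 (r from 0.976 to 0.988), on counts of 41 to 73 per library.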
